A study of Mus musculus with 36 samples.

Results

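Gene expression in P wounds of mouse skin taken on day 4 after injury was compared with that in unwounded skin. The comparison used 8 of the 36 libraries of the series, the 5 that the labels call P at day 4 and the 3 labelled unwounded skin at day 0, chosen by these labels alone. It covered the raw read count of every gene. The series asks how removing skin cells with high levels of p21, the product of Cdkn1a, bears on wound closure. Its wounds fall into 2 arms named P and PD, which the labels do not spell out, and the unwounded skin has no arm label. Strain, age, genotype and any agent given to the mice are not in the sources used here. The labels also do not say which animals the biopsies came from, so p-values measure only the spread between samples. That spread was estimated from all 36 libraries fitted together. The RNA came from snap-frozen tissue, and a P wound is therefore a mixture of epidermis, dermis, fat, muscle and blood-borne cells.

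A skin wound first fills with clot and is entered by neutrophils and then by monocytes, which become macrophages. Keratinocytes at the edge change their keratins, loosen from the basement membrane and move over the bed, while fibroblasts and new vessels build granulation tissue under them. In loose-skinned mice the wound also cuts a sheet of skeletal muscle below the skin, the panniculus carnosus, which can regenerate.

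The wound libraries held 19.9 to 39.8 M reads in genes and the unwounded ones 19.8 to 58.4 M. Levels are CPM (reads of a gene per 1e+06 reads) after scaling between libraries with TMM, and lists of them run from replicate 1 upwards. Tests are edgeR quasi-likelihood tests, with p-values adjusted after Benjamini and Hochberg over the 20657 genes tested. The keratinocyte genes Krt14 and Krt5 were read at over 1000 CPM in all 8 libraries. In a principal component analysis of these 8 libraries the first component (60.5% of the variance) parted wounds from unwounded skin, and the second (17.1%) set wound replicates 3 and 4 apart, at 128.6 and -66.3, from the other wounds, at -28.8 to -13.9. Replicate 3 was the highest wound in 109 and replicate 4 in 39 of the 151 genes whose coefficient of variation among wounds was above 1 at 10 CPM or more. Replicate 3 held genes of growing hair, and replicate 4 held more neutrophil and adult muscle transcript and less keratin transcript than the other wounds. The counts over all genes, the hair results and some other calls are given with and without either or both. For most genes in which replicate 4 was the highest wound, results without it are not given.

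Of the genes tested, 43.3% passed an adjusted p of 0.05 (8945 genes), 23.6% being higher in the wounds (4879) and 19.7% lower (4066). The counts called in each list below are to be read beside these shares. The change was lopsided in size. More than 2-fold differences were called for 3418 genes higher (16.5%) and 2062 lower (9.98%), and differences above 16-fold for 961 higher (4.65%) and 78 lower (0.378%). The median change of all tested genes was 0.08 on the log2 scale. The 2 groups did not overlap for 8811 genes (42.7%). Of genes with 0 counts in unwounded skin, 7 reached 10 CPM or more in all 5 wounds, and 0 genes did the reverse. Protein-coding genes were called more often (46.3%) than long noncoding RNAs (35.7%). With replicates 3 and 4 left out, 4363 genes were higher and 3808 lower. Without unwounded replicate 2 the count lower was 2689.

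**Figure D1:**
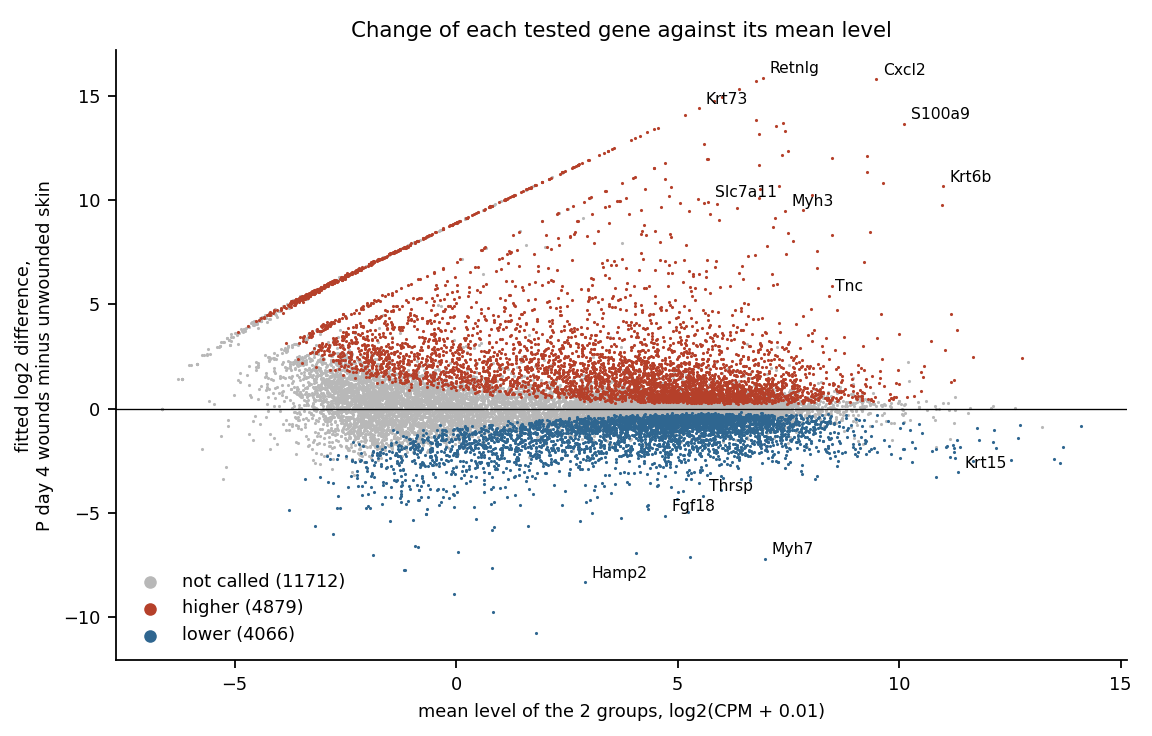
Fitted log2 difference (P day 4 wounds minus unwounded skin) of each of the 20657 tested genes on the y axis against the mean level of the groups on the x axis, as log2(CPM + 0.01). Red points are the 4879 genes called higher and blue points the 4066 called lower. The higher genes reach much farther from 0 than the lower ones, and the slanted line of points at the upper left holds genes with 0 counts in unwounded skin, whose fitted values depend on a prior count.

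Genes of neutrophils, the first white cells to enter a wound, rose. Of 20 neutrophil genes tested 19 were higher and 0 lower, with a median log2 change of 8.67, or 8.03 with the genes at 0 counts in unwounded skin set to their lower bounds. S100a9 (ENSMUSG00000056071, chr3:90599931-90603071, minus strand), 1 chain of the antibacterial protein calprotectin, lay at 0.262, 0.0997 and 0.157 CPM in unwounded skin and 2239.9, 1219, 1413, 4941 and 1259 CPM in the wounds (log2 13.68, SE 2.27, edgeR adjusted p = 1.81e-05). Its partner S100a8 lay at 0.785, 0.439 and 0.105 CPM in unwounded skin and 1345, 748, 771, 2503 and 773 CPM in the wounds (log2 11.38, SE 1.63, edgeR adjusted p = 2.15e-06). Both were close to absent from unwounded skin, and wound replicate 4 was the highest wound for each. Retnlg (ENSMUSG00000022651, chr16:48692547-48694862, plus strand), a secreted protein of neutrophils, had 0 counts in unwounded skin and 278, 113, 179.9, 588 and 59.3 CPM in the wounds, a rise of at least 7798-fold against a floor of 3 counts over the 3 unwounded libraries. On the same floor Trem1, a receptor that amplifies inflammatory signals, rose at least 6941-fold, Stfa2l1, of a cysteine protease inhibitor family, at least 5334-fold, and Fpr1, a receptor for bacterial formyl peptides, at least 1415-fold. The summed level of the 20 genes was 73.2, 68.9 and 90.6 CPM in unwounded skin and 4859, 2866, 3024, 10406 and 2954 CPM in the wounds. In whole biopsies more cells of a type and more RNA per cell cannot be told apart, here or below.

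The chemokines that draw neutrophils in rose alongside. Of 8 attractant genes 7 were higher and 0 lower (median log2 8.19). Cxcl2, a ligand of the neutrophil receptor CXCR2, lay at 0.0374, 0.0199 and 0 CPM in unwounded skin and 1356, 1010.2, 851, 3014 and 905 CPM in the wounds. The 3 unwounded libraries held 2 reads of it between them. The ratio was 68481 (95% interval 18958 to 565470.0), an interval that covers counting error only. Cxcl3, a close relative, lay at 0.0374, 0 and 0 CPM in unwounded skin and 232, 157, 119, 492 and 97.5 CPM in the wounds, from 1 read in unwounded skin, a ratio of 21064 (95% interval 3780.5 to 831967). Cxcl1 was more modest, at 0.112, 0.319 and 0.367 CPM in unwounded skin and 14.2, 9.74, 9.5, 33.2 and 15.9 CPM in the wounds (log2 5.93, SE 1.38, edgeR adjusted p = 0.000942). Csf3, the growth factor that releases neutrophils from bone marrow, went from 1 read to 27.9, 17.1, 32.2, 113 and 32.3 CPM, a ratio of 4264 (95% interval 765 to 168435).

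The 3 CXCL genes lie near each other on chromosome 5, and their promoters are shown because they share a run of 11 bases. The 100 bases before each annotated start (GRCm39, plus strand, GENCODE vM39 start of the canonical transcript) are at chr5:91038994-91039093 for Cxcl1, chr5:91051630-91051729 for Cxcl2 and chr5:90933862-90933961 for Cxcl3, and overlap 0 annotated exons. Capitals mark GGGAATTTCCC, the longest run found in all 3, which has the form of the site bound by the inflammatory factor NF-kB.
Cxcl1: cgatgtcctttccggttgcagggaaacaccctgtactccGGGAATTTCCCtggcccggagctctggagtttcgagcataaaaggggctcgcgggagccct
Cxcl2: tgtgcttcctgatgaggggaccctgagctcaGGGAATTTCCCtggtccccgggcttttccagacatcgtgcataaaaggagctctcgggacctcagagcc
Cxcl3: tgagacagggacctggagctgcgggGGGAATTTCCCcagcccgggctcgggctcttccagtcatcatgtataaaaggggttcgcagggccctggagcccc
The run began 61 bases before the start in Cxcl1, 69 in Cxcl2 and 75 in Cxcl3. Since it was taken from these sequences, its presence in 3 of the 8 attractants (37.5%) is fixed by the choice. On either strand it occurred in 4 of 16157 promoters of tested protein-coding genes (0.0248%). The fourth gene was Rhoc, which encodes a small GTPase, named here for the match after its values were seen and 3.39-fold higher in the wounds. A match describes the letters and does not show binding.

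Monocyte and macrophage genes rose as well. Of 23 tested, 21 were higher and 0 lower (median log2 4.54). Cd68, a lysosomal protein of macrophages, lay at 9.57, 13.1 and 7.02 CPM in unwounded skin and 194, 171, 93, 313 and 224 CPM in the wounds (log2 4.32, SE 0.59, edgeR adjusted p = 1.03e-06). Clec4e, a receptor for dead cells and fungi, went from 2 reads in unwounded skin to 165, 128, 138, 520.4 and 187 CPM, a ratio of 10934 (95% interval 3027 to 90289.5). Replicate 4 was the highest wound for both. Saa3, an acute phase protein made locally by macrophages and epithelium, lay at 0.0374, 0.0199 and 0 CPM in unwounded skin and 575, 494, 258, 90.6 and 238 CPM in the wounds, a ratio of 15885 (95% interval 4398 to 131170.0), and here replicate 4 was the lowest wound. Of 15 genes of tissue-resident macrophages 6 were higher and 1 was lower (median log2 1.92), beside 23.6% and 19.7% of all genes tested. The higher ones included the 3 chains of complement C1q, with C1qa at 42.8, 63.3 and 15.2 CPM in unwounded skin and 349, 383, 181, 196 and 369 CPM in the wounds (log2 2.87, SE 0.70, edgeR adjusted p = 0.0015). The lower one was Retnla, a marker of alternative activation, 9.26-fold down, a call that leaving out unwounded replicate 2 ended (edgeR adjusted p = 0.0586).

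The CC chemokines, which recruit monocytes, were called higher for 16 of 22 genes with their receptors. Ccl3 lay at 0, 0.0399 and 0 CPM in unwounded skin and 301, 200.1, 175, 635 and 179 CPM in the wounds, a ratio of 14305 (95% interval 3960.0 to 118121) over 2 reads. Ccl4, its neighbour, rose 3283-fold, their receptor Ccr1 91.6-fold, Ccl2 12.9-fold and Ccl8 22.2-fold. The lower one was Ccl27a, which keratinocytes use to hold T cells in skin, at 87.4, 69.8 and 107 CPM in unwounded skin and 13.9, 9.77, 22.4, 27.3 and 18.5 CPM in the wounds (log2 -2.26, SE 0.48, edgeR adjusted p = 0.0004). All 5 wounds lay below the unwounded libraries for this gene.

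Inflammatory cytokines were raised through several families. Of 17 genes of the interleukin-1 family and its inflammasome 12 were higher, and of 16 genes of tumour necrosis factor and the NF-kB feedback loop 12 were higher, with 0 lower in either. Il1b lay at 0.673, 1.16 and 0.681 CPM in unwounded skin and 1549, 1141, 948, 3248 and 1065 CPM in the wounds (log2 10.85, SE 1.93, edgeR adjusted p = 4.40e-05). Nlrp3, the sensor of the inflammasome that matures it, rose 419.6-fold, Il1a 9.26-fold and Il36a, a family member made by keratinocytes, 113-fold. Tnf rose 112-fold, its receptor Tnfrsf1b 13.6-fold and the NF-kB cofactor Bcl3 11.2-fold. Of 12 genes of the interleukin-6 family 7 were higher, among them Osm, a product of neutrophils and macrophages, 538-fold, and Il6, with 0 counts in unwounded skin and 2.49, 2.13, 0.636, 2.19 and 8.19 CPM in the wounds. Il6ra, its receptor, was 2.8-fold lower, while Socs3, the feedback inhibitor of the pathway, was 4-fold higher. Of 20 interferon-induced genes 9 were higher and 0 lower (median log2 1.27), including Isg15, a ubiquitin-like antiviral protein, 7.24-fold, and the antiviral synthetase Oas3 17.5-fold. Without unwounded replicate 3, 5 of the 20 were called. Of 18 prostaglandin and leukotriene genes 8 were higher and 2 lower, with Ptgs2, the inducible cyclooxygenase, at 1.46, 1.68 and 1.26 CPM in unwounded skin and 167, 149.8, 141, 272 and 132 CPM in the wounds (log2 6.86, SE 1.40, edgeR adjusted p = 0.000242). Ptger3, a prostaglandin E2 receptor, was 5.45-fold lower.

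Few genes of the lymphocyte lists were called higher. Of 18 genes of T and NK cells 2 were higher and 5 lower (median log2 -0.0956), beside 23.6% and 19.7% of all genes tested. Counts this small are not read as a result about T and NK cells. Of 10 genes of the gamma-delta T cells of the epidermis and the Skint proteins that keratinocytes display to them 0 were higher and 6 lower. Trdc, the constant region of the delta chain, lay at 15.4, 8.54 and 17.2 CPM in unwounded skin and 2.55, 4.2, 1.5, 1.73 and 2.82 CPM in the wounds (log2 -2.41, SE 0.40, edgeR adjusted p = 1.79e-05). Skint7 lay at 67, 55.1 and 73.1 CPM in unwounded skin and 4.84, 4.78, 2.36, 5.08 and 3.91 CPM in the wounds (log2 -3.96, SE 0.57, edgeR adjusted p = 2.14e-06). No wound reached the lowest unwounded library for either gene. Cd3e and Cd3g, 2 chains of the T cell receptor complex, were 4.64-fold and 3.96-fold lower, whereas the T cell surface protein Cd5 was 5.26-fold higher. Of 15 genes of class II antigen presentation and dendritic cells 0 were called in either direction by edgeR (2 had an unadjusted p under 0.05). The DESeq2 Wald test also called 0, and limma-voom called 2 lower.

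Of 7 B cell genes 0 were higher and 2 lower, of 12 mast cell genes 2 and 1, of 14 complement genes 2 and 2, and of 5 red cell genes 1 and 0. Of 19 genes of small proteoglycans and elastic fibres 3 were higher and 1 was lower. Of 8 melanocyte genes 3 were higher and 2 lower. Their summed level was 68.3, 63.1 and 64.4 CPM in unwounded skin and 45.3, 33.9, 116, 26.6 and 42 CPM in the wounds, so wound replicate 3 was above and the other 4 wounds below all unwounded libraries. Without wound replicate 3, 0 were called higher, as without unwounded replicate 1 or 2, and 1 without unwounded replicate 3.

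**Figure D2:**
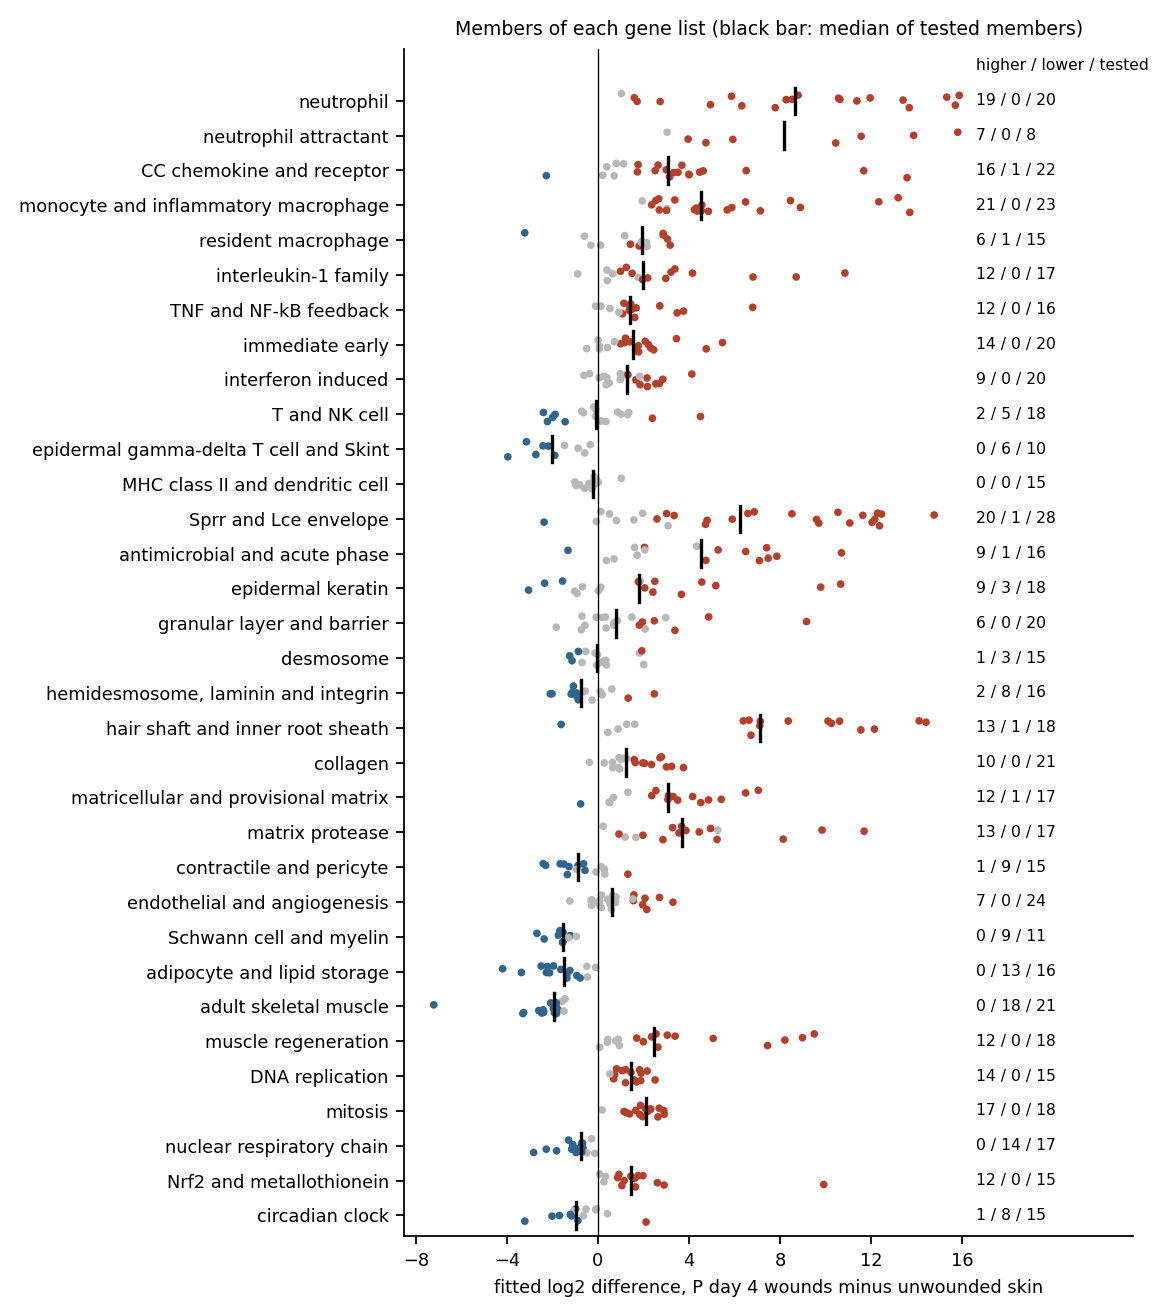
Fitted log2 difference (P day 4 wounds minus unwounded skin, x axis) of each tested member of 33 gene lists (rows). Red points were called higher, blue lower and grey neither, the black bar is the median of the members, and the figures on the right are the counts higher, lower and tested. Medians of the neutrophil and attractant lists lie far to the right of 0, and those of the adult muscle, adipocyte, Schwann cell and respiratory chain lists to its left.

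Keratin genes of the epidermis moved in both directions. Of 18 epidermal keratin genes 9 were higher and 3 lower. Krt16 (ENSMUSG00000053797, chr11:100136917-100139795, minus strand), a keratin of activated keratinocytes, lay at 3.89, 3.99 and 5.77 CPM in unwounded skin and 4435, 6301, 2300.3, 1953 and 5080.3 CPM in the wounds (log2 9.79, SE 1.83, edgeR adjusted p = 8.35e-05). Krt6b, its usual partner, lay at 2.8, 1.56 and 3.2 CPM in unwounded skin and 4933, 5742, 2402, 1829.6 and 5381 CPM in the wounds (log2 10.67, SE 2.60, edgeR adjusted p = 0.00146), and Krt6a rose 23.7-fold. Every wound was far above every unwounded library for Krt16 and Krt6b. Unwounded skin already held Krt6a at 198, 156 and 207 CPM. Because Krt6a and Krt6b are near copies, reads may be split between them. The basal keratins parted: Krt14 rose to 12317, 15585, 11631, 7193 and 12039 CPM from 2365, 1415 and 2812 CPM (log2 2.42, SE 0.45, edgeR adjusted p = 8.28e-05), while its partner Krt5 was not called, at 6631, 4309.6 and 7868 CPM in unwounded skin and 5828, 7631, 8771, 4734 and 4858 CPM in the wounds (log2 0.02, SE 0.33, edgeR adjusted p = 0.965). Krt15, a basal keratin of resting epidermis and of the hair follicle bulge, lay at 4865, 3545 and 5254 CPM in unwounded skin and 566, 602, 514, 553 and 525 CPM in the wounds (log2 -3.04, SE 0.49, edgeR adjusted p = 1.09e-05). The 5 wounds were nearly equal for Krt15 and all below the unwounded libraries. Krt80, of differentiated epidermis, was 2.93-fold lower.

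Envelope genes of the epidermal differentiation complex rose. Of 28 Sprr and Lce genes 20 were higher and 1 was lower (median log2 6.25, the same with genes at 0 set to their bounds). Sprr1b, a precursor protein of the cornified envelope, lay at 0.224, 0.16 and 0.105 CPM in unwounded skin and 712, 1351, 218, 537 and 783 CPM in the wounds (log2 12.05, SE 2.17, edgeR adjusted p = 5.27e-05). Sprr2d had 0 counts in unwounded skin and 98.3, 116, 29.5, 253 and 71.7 CPM in the wounds, at least 3635-fold. Lce3e, of the late envelope group that is induced on injury, rose at least 730.1-fold from 0. Many Sprr2 and Lce genes are near copies of each other, so the share of each is uncertain. The lower one was Lce1m (log2 -2.36, SE 0.91, edgeR adjusted p = 0.0353), a call lost without wound replicate 3 (edgeR adjusted p = 0.0743), without wound replicate 4 (0.0859) and without unwounded replicate 1, 2 or 3 (0.0964, 0.0589 and 0.0845). Of 20 granular layer genes 6 were higher, a share not far above that of all genes, and 0 lower, with Rptn, an envelope matrix protein, at 0.486, 0.678 and 0.262 CPM in unwounded skin and 306, 488, 123, 53.2 and 489 CPM in the wounds (log2 9.17, SE 2.08, edgeR adjusted p = 0.000727). Casp14, the protease that processes filaggrin, rose 5.57-fold and Tgm1, which cross-links the envelope, 3.88-fold. Wound replicates 3 and 4 held less Rptn than the other wounds. Of 12 lipid barrier genes 4 were higher and 0 lower, beside 23.6% and 19.7% of all genes tested. The count higher was 2 without wound replicate 1 or 2 and 1 without unwounded replicate 1 or 2.

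Genes that anchor keratinocytes to the basement membrane were lower. Of 16 genes of hemidesmosomes, laminins and integrins 8 were lower and 2 higher (median log2 -0.75). Without unwounded replicate 3, 5 were called lower. Col17a1, the transmembrane collagen of the hemidesmosome, lay at 2894, 2059 and 3336 CPM in unwounded skin and 600.2, 813, 831, 529.7 and 652 CPM in the wounds (log2 -2.01, SE 0.35, edgeR adjusted p = 2.74e-05). Dst, which ties keratin filaments to it, lay at 1212, 1141 and 1183 CPM in unwounded skin and 268, 278, 351, 272 and 215 CPM in the wounds (log2 -2.09, SE 0.19, edgeR adjusted p = 9.27e-10). For both, the highest wound lay well under the lowest unwounded library. Itgb4, the integrin chain of the hemidesmosome, was 2.25-fold lower, whereas Itga5, the fibronectin receptor chain of migrating cells, was 5.59-fold higher. Desmosome genes, which join keratinocytes to each other, were called higher for 1 of 15 and lower for 3. Of 11 gap and tight junction genes 2 were higher and 2 lower. The higher ones were connexins, of which Gjb2 lay at 2.84, 3.29 and 2.67 CPM in unwounded skin and 523, 562, 894, 257 and 559.9 CPM in the wounds (log2 7.57, SE 1.32, edgeR adjusted p = 3.59e-05) and Gjb6 rose 42.3-fold. The lower ones were Gjb5, also a connexin (log2 -0.82, SE 0.32, edgeR adjusted p = 0.0395), and Ocln, occludin of tight junctions (log2 -1.02, SE 0.39, edgeR adjusted p = 0.0319). Neither was called lower without wound replicate 4 or 5 or without unwounded replicate 1, 2 or 3 (edgeR, 0 of 11 in each case). Gjb5 also lost its call without wound replicate 3 (edgeR adjusted p = 0.0988) and Ocln without wound replicate 2 (edgeR adjusted p = 0.054). Of 16 antimicrobial and acute phase genes 9 were higher and 1 was lower, Orm1, an acute phase plasma protein (log2 -1.31, SE 0.50, edgeR adjusted p = 0.0336). That lower call was lost without wound replicate 3, 4 or 5 or any 1 of the unwounded libraries (edgeR, 0 of 16 in each case). Slpi, a protease inhibitor of neutrophils and epithelium, lay at 0.224, 0.199 and 0.105 CPM in unwounded skin and 211, 156, 187, 831 and 183 CPM in the wounds (log2 10.70, SE 1.41, edgeR adjusted p = 6.35e-07), Lcn2, which starves bacteria of iron, rose 137-fold, and the beta-defensin gene Defb14 26.9-fold.

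**Figure D3:**
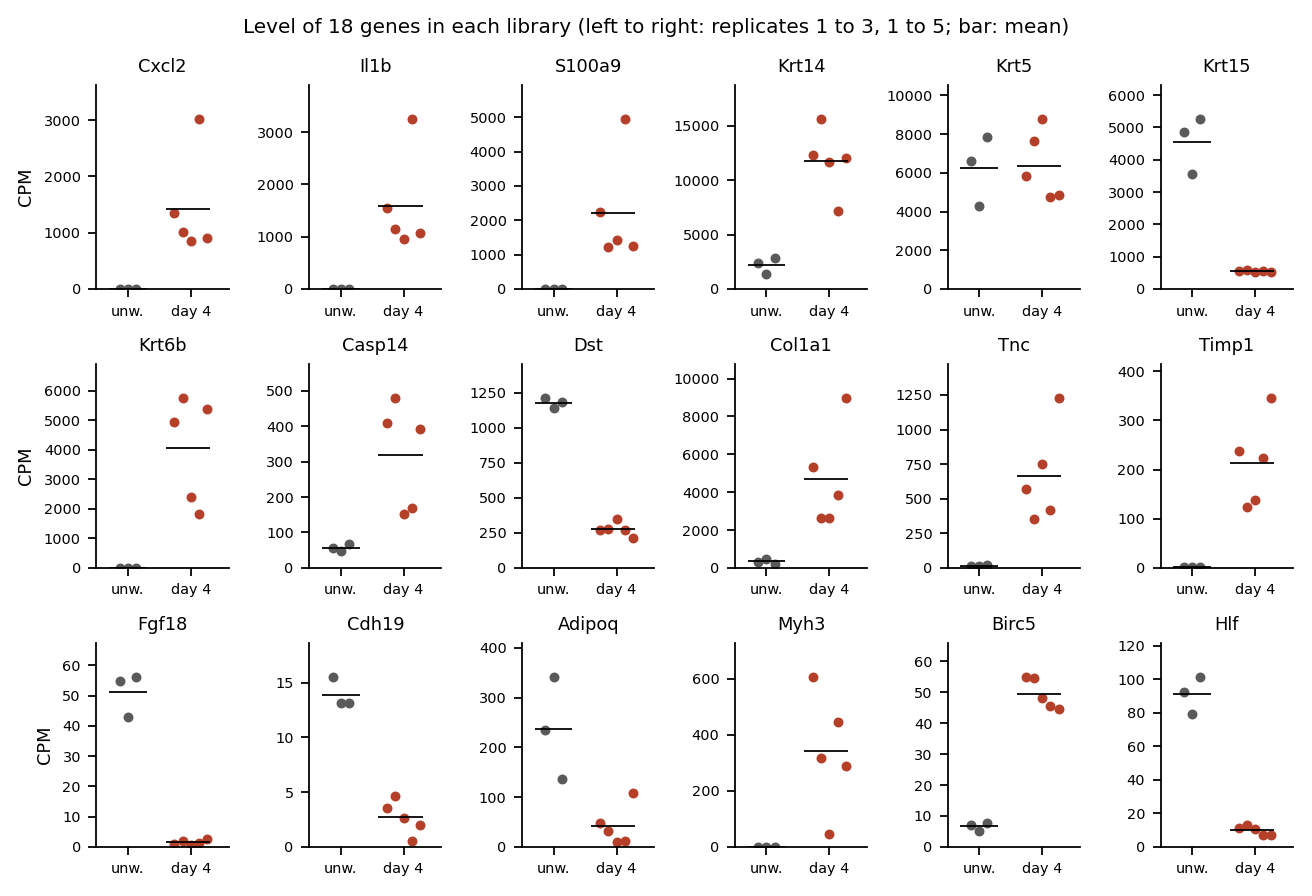
Level in CPM (y axis, linear from 0, a scale for each panel) of 18 genes in the 3 unwounded libraries and the 5 P day 4 wounds, left to right by replicate, with the mean of each group as a bar. Krt5 overlaps between the groups, whereas Krt15, Dst, Fgf18 and Hlf are lower in every wound and Cxcl2, Krt6b, Timp1 and Myh3 higher in every wound than in any unwounded library. Cxcl2 and Fgf18 are also among the 12 largest rises and falls, which were picked from genes whose groups do not overlap.

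Hair shaft genes stood highest by far in wound replicate 3. Of 18 genes of the hair shaft and inner root sheath 13 were called higher, yet their summed level was 371, 269 and 467 CPM in unwounded skin and 167, 190.3, 11471, 130.0 and 137 CPM in the wounds. Replicate 3 stood far above any other wound, and the other 4 wounds lay below all 3 unwounded libraries. Without it 2 of the 18 were called higher, and 0 without both replicates 3 and 4. Krt25, an inner root sheath keratin, lay at 0.0374, 0.0199 and 0.21 CPM in unwounded skin and 0.484, 0.0263, 1624, 1.85 and 0.0575 CPM in the wounds, and Krt27, its neighbour, at 0.187, 0.239 and 0.157 CPM in unwounded skin and 0.517, 0.289, 1141, 0.692 and 0.0863 CPM in the wounds. Without replicate 3 neither was called (edgeR adjusted p = 0.279 and 0.664). The fit of the 2 groups alone also called neither (edgeR adjusted p = 0.0695 and 0.0762). The cause of the hair transcript in replicate 3 was not tested. The pigment protein gene Pmel, made by melanocytes of growing hair, was also highest in replicate 3, at 1.01, 1.46 and 0.681 CPM in unwounded skin and 4.36, 2.26, 22.7, 1.15 and 3.45 CPM in the wounds, and its call was lost without it (edgeR adjusted p = 0.209) and without unwounded replicate 1, 2 or 3 (0.0815, 0.0624 and 0.0924). Of 10 genes of follicle stem cells 3 were lower and 0 higher, beside 19.7% and 23.6% of all genes tested. Fgf18, a signal of the resting bulge, lay at 54.8, 43 and 56.1 CPM in unwounded skin and 0.969, 1.92, 0.523, 1.38 and 2.44 CPM in the wounds (log2 -5.13, SE 0.70, edgeR adjusted p = 1.03e-06), Lgr6, a stem cell receptor of the upper follicle, was 4.22-fold lower, and Gata3, a regulator of the inner root sheath, 3.05-fold lower. Of 10 sebaceous gland genes 4 were higher and 1 was lower, with the fatty acid elongase Elovl3 9.91-fold higher and the desaturase Scd3 10.5-fold lower. Without unwounded replicate 2, 1 was called higher.

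**Figure D4:**
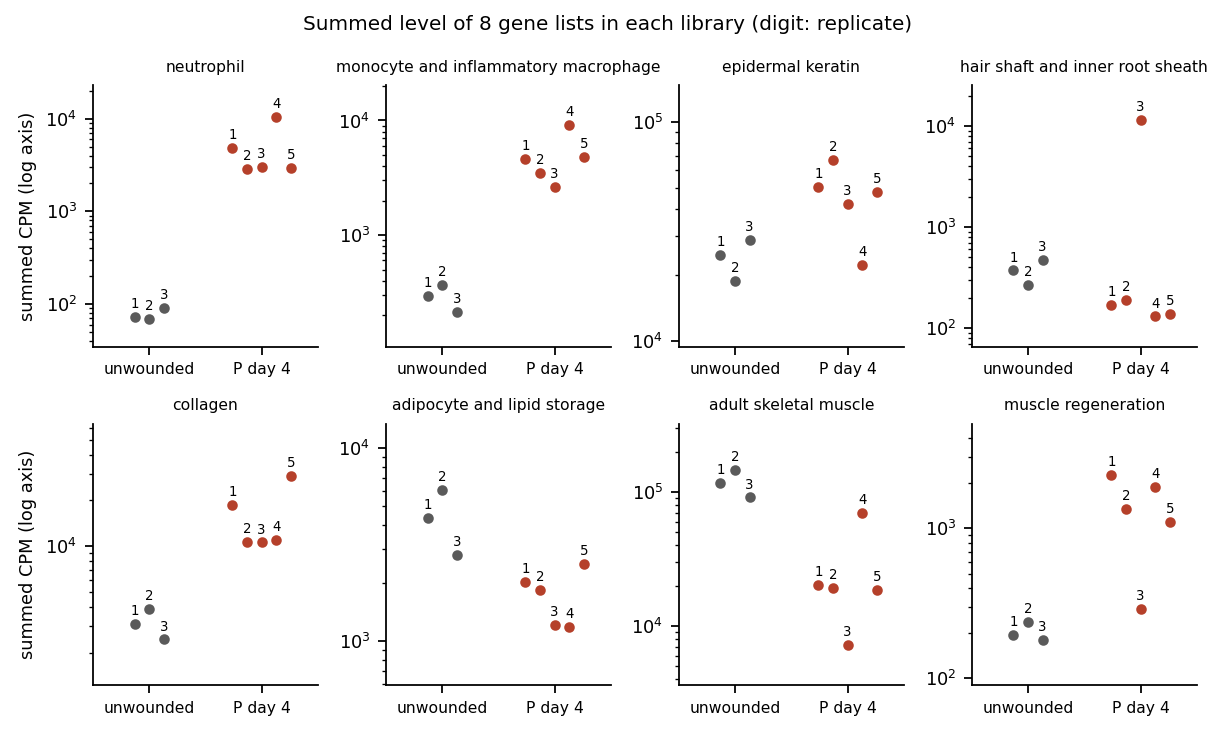
Summed CPM (y axis, log scale) of 8 gene lists in each unwounded library (grey) and P day 4 wound (red), with the replicate number beside each point. Wound replicate 3 stands apart for the hair list at 11471 CPM, and wound replicate 4 is highest for the neutrophil and adult muscle lists and lowest among wounds for epidermal keratins.

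Genes of the dermal matrix rose. Of 21 collagen genes 10 were higher and 0 lower, and of 19 genes that modify or cross-link collagen 12 were higher and 1 was lower. Col1a1, the main chain of fibrillar collagen I, lay at 333, 470.5 and 231 CPM in unwounded skin and 5305, 2613, 2657, 3853 and 8962 CPM in the wounds (log2 3.76, SE 0.79, edgeR adjusted p = 0.000333), and Col1a2, its second chain, rose 9.44-fold. Replicates 1 and 5 held the most of both. Lox, which cross-links collagen, rose 12.6-fold, the collagen chaperone Fkbp10 7.55-fold and the prolyl hydroxylase P4ha3 27.6-fold. Of 17 genes of provisional matrix 12 were higher and 1 was lower. Tnc, the tenascin of wound edges, lay at 13.2, 15.3 and 18.1 CPM in unwounded skin and 573, 355, 749, 421 and 1226 CPM in the wounds (log2 5.42, SE 0.76, edgeR adjusted p = 1.75e-06). Spp1, osteopontin, lay at 8.6, 13.2 and 4.67 CPM in unwounded skin and 840.1, 425, 746, 2609 and 1264 CPM in the wounds (log2 7.05, SE 1.34, edgeR adjusted p = 9.95e-05). Thbs1, thrombospondin of platelets and macrophages, rose 23-fold, Cthrc1, a collagen triple helix repeat protein of fibroblasts in repair, 89.9-fold, and the secreted Wnt target Ccn4 29.1-fold. All wounds lay above all unwounded libraries for these 5 genes.

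Enzymes that cut matrix rose as well. Of 17 matrix proteases 13 were higher and 0 lower (median log2 3.68). Mmp13 (ENSMUSG00000050578, chr9:7272514-7283331, plus strand), a collagenase, lay at 0.0748, 0 and 0.21 CPM in unwounded skin and 22.7, 7.72, 35.8, 222 and 44.8 CPM in the wounds (log2 9.85, SE 1.92, edgeR adjusted p = 0.00014). Mmp10, a stromelysin of migrating keratinocytes, had 0 counts in unwounded skin and 4.36, 1.18, 5.31, 47.7 and 9.09 CPM in the wounds, at least 433-fold. Replicate 4 was far above the other wounds for both. Mmp3, its relative in fibroblasts, lay at 7.33, 7.6 and 4.56 CPM in unwounded skin and 84.7, 84.7, 82.5, 37.4 and 97.1 CPM in the wounds (log2 3.57, SE 0.81, edgeR adjusted p = 0.000764), and there replicate 4 was the lowest wound. The aggrecanase Adamts4 rose 30.9-fold. These 3 MMP genes sit in a cluster on chromosome 9, and their promoters are shown because each holds TGANTCA, the usual form of the site of AP-1, the dimer of Fos and Jun proteins. The windows are the 100 bases before the annotated start (GRCm39, plus strand), chr9:7272414-7272513 for Mmp13, chr9:7502253-7502352 for Mmp10 and chr9:7445722-7445821 for Mmp3, with 0 annotated exons in them and the match in capitals.
Mmp13: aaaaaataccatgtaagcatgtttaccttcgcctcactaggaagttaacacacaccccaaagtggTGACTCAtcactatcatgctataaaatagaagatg
Mmp10: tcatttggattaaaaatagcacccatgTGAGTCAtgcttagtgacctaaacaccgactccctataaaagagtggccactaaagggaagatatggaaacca
Mmp3: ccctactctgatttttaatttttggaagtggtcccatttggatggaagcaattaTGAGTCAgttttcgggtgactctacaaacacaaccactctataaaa
The match began 35, 73 and 46 bases before the start. It occurred on either strand in 8 of the 17 proteases (47.1%), in 338 of 16157 promoters overall (2.09%), in 2.64% of genes called higher and in 1.56% of those called lower. Of the factor's own genes, Fosl1 rose 44.4-fold and Junb lay at 82.9, 56.4 and 78.4 CPM in unwounded skin and 654, 624, 469, 1501 and 723 CPM in the wounds (log2 3.45, SE 0.42, edgeR adjusted p = 1.64e-07). Of 20 immediate early genes 14 were higher, 0 lower and 6 not called, with changes from log2 -0.49 to 5.47. Fosl1 and Junb were named for being among the largest changes of that list. So was Ier3, a survival factor, 27.1-fold higher. Values of Fos and Fosb, the first 2 genes of the list, are not given here. Whether AP-1 acts on the proteases was not tested. Also searched was the muscle E-box CAGCTG, found in 4 of 21 adult muscle promoters and in 5.01% of all.

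The plasminogen system and its inhibitors rose with the proteases. Of 18 such genes, with coagulation factors, 11 were higher and 3 lower. Plaur, the urokinase receptor, lay at 1.98, 2.69 and 1.36 CPM in unwounded skin and 424, 280.3, 188, 617 and 228 CPM in the wounds (log2 7.41, SE 0.75, edgeR adjusted p = 8.00e-09). Timp1, a secreted inhibitor of metalloproteinases, lay at 1.31, 1.12 and 1.52 CPM in unwounded skin and 237, 123, 138, 223 and 345 CPM in the wounds (log2 7.35, SE 0.76, edgeR adjusted p = 1.28e-08). Serpine2, a serine protease inhibitor, was 2.2-fold lower, and so was Timp4, at 40, 49.3 and 26.5 CPM in unwounded skin and 1.61, 1.71, 0.523, 0.692 and 2.27 CPM in the wounds (log2 -4.80, SE 0.65, edgeR adjusted p = 9.03e-07). Timp1 and Timp4 thus moved in opposite directions. Timp4 is also among the 12 largest falls, which were picked from genes whose groups do not overlap.

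Several contractile genes were lower. Acta2, the smooth muscle actin that marks myofibroblasts as well as vessel walls, was not called, at 260.2, 245 and 246 CPM in unwounded skin and 286, 163, 243, 303 and 393 CPM in the wounds (log2 0.15, SE 0.36, edgeR adjusted p = 0.761). Of 15 contractile and pericyte genes 1 was higher and 9 were lower, with Myh11, smooth muscle myosin, at 172, 159.5 and 146 CPM in unwounded skin and 35.9, 40.7, 21.4, 25.5 and 39 CPM in the wounds (log2 -2.29, SE 0.53, edgeR adjusted p = 0.000949) and the actin nucleator Lmod1 5.28-fold lower. The count lower was 5 without wound replicate 2 and 3, 5 and 4 without unwounded replicate 1, 2 and 3. Of 14 fibroblast genes 5 were higher and 0 lower, among them Pdpn, a surface protein of activated fibroblasts, 10-fold, and the transcription factor Runx1 5.14-fold. Of 24 vessel genes 7 were higher and 0 lower, a share higher near the 23.6% of all genes tested. Without unwounded replicate 3, 4 were called, a share below it. The higher ones included Selp, the selectin that slows white cells, 9.84-fold, and Apln, a peptide of sprouting tip cells, 6.53-fold. Pecam1, present on all endothelium, was not called (log2 0.73, SE 0.46, edgeR adjusted p = 0.197), although it was called higher by the fit of the 2 groups alone (adjusted p = 0.0372) and with a replicate block (adjusted p = 0.0271).

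Nerve and fat genes were lower. Of 11 Schwann cell genes 9 were lower and 0 higher (median log2 -1.55). Cdh19, a cadherin of Schwann cells, lay at 15.5, 13.1 and 13.1 CPM in unwounded skin and 3.55, 4.68, 2.62, 0.577 and 2.01 CPM in the wounds (log2 -2.36, SE 0.56, edgeR adjusted p = 0.00114). All 5 wounds lay below all unwounded libraries for this gene. Of 16 adipocyte genes 13 were lower and 0 higher. The count lower was 8 without wound replicate 3 or 4, 7 without unwounded replicate 1, and 5 without unwounded replicate 2 or without both wound replicates 3 and 4. Adipoq, the fat hormone adiponectin, lay at 235, 341 and 136 CPM in unwounded skin and 48.8, 31.4, 10.1, 11.7 and 109 CPM in the wounds (log2 -2.49, SE 0.78, edgeR adjusted p = 0.0111). All wounds were below all unwounded libraries, replicate 5 least so. Leaving out unwounded replicate 2 ended the call of Adipoq (edgeR adjusted p = 0.0654) as did leaving out wound replicates 3 and 4 (0.0776). Thrsp, a regulator of fat synthesis, lay at 104, 126 and 38.7 CPM in unwounded skin and 6.52, 3.2, 0.673, 5.94 and 8.28 CPM in the wounds (log2 -4.18, SE 0.96, edgeR adjusted p = 0.000791). Of the steepest falls of all, Hamp2, a hepcidin gene, went from 23, 11.9 and 10.1 CPM to 0.0323, 0.0263, 0, 0.173 and 0.0288 CPM (322-fold). Angptl7, a secreted protein related to angiopoietins, fell 31.1-fold, Chat, which makes acetylcholine, 32.2-fold, Il22ra2, a soluble decoy receptor for interleukin-22, 25.6-fold, and Cyp2e1, a cytochrome P450 that oxidises ethanol, 20.4-fold.

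Adult muscle genes fell while genes of new muscle rose. Of 21 genes of adult skeletal muscle 18 were lower and 0 higher, and of 18 genes of muscle regeneration 12 were higher and 0 lower. The adult genes summed to 116004, 147116 and 91082 CPM in unwounded skin and 20292, 19179, 7195, 69503 and 18668 CPM in the wounds, with replicate 3 lowest and replicate 4 closest to unwounded skin. The count of adult genes called lower was 11 without wound replicate 2 or 3 or unwounded replicate 1, and 6 without unwounded replicate 2. Ckm, muscle creatine kinase, lay at 10158, 12166 and 7696 CPM in unwounded skin and 1180.2, 1135, 443, 5150.2 and 1162 CPM in the wounds (log2 -2.46, SE 0.79, edgeR adjusted p = 0.0129). Pvalb, a calcium buffer of fast fibres, lay at 3282, 3974 and 2659.9 CPM in unwounded skin and 103, 154, 48.6, 1163 and 218 CPM in the wounds (log2 -3.29, SE 0.89, edgeR adjusted p = 0.00374). Mstn, myostatin, a brake on muscle growth, was 9.57-fold lower. Myh7, slow myosin, rested on 1 library. It lay at 0.673, 742 and 0 CPM in unwounded skin and 2.65, 0.998, 0.112, 3.98 and 0.891 CPM in the wounds (log2 -7.21, SE 1.88, edgeR adjusted p = 0.00264), and without unwounded replicate 2 its log2 difference was 2.23.

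Myh3 (ENSMUSG00000020908, chr11:66969126-66993117, plus strand), the embryonic myosin of fibres being rebuilt, lay at 0.224, 0.858 and 0.157 CPM in unwounded skin and 605, 317, 45.3, 447 and 288 CPM in the wounds (log2 9.51, SE 1.10, edgeR adjusted p = 9.10e-08). Mymk, which lets muscle precursors fuse, lay at 0.262, 0.239 and 0 CPM in unwounded skin and 95.9, 60.9, 8.93, 79 and 41.7 CPM in the wounds (log2 8.22, SE 0.98, edgeR adjusted p = 1.51e-07). Mymx, its partner in fusion, went from 1 read to 13.1, 9.09, 1.87, 9.57 and 4.28 CPM, a ratio of 729 (95% interval 131 to 28775). Chrng, the fetal chain of the acetylcholine receptor, rose 176-fold, and Myog, a factor of muscle differentiation, 8.28-fold. Myod1, the factor of the precursor cells, was not called (log2 0.44, SE 0.51, edgeR adjusted p = 0.508). Replicate 3 held the least of each of these rising genes, and it also held the least adult muscle transcript. The regeneration genes summed to 195, 238 and 180.1 CPM in unwounded skin and 2264, 1353, 291, 1888 and 1109 CPM in the wounds. How much muscle each biopsy held was not tested.

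Some growth factor genes were higher and others lower. Among 11 genes of the EGF family 4 were higher and 2 lower, beside 23.6% and 19.7% of all genes tested. Counts this small are not read as a result about the family. Without unwounded replicate 1, 2 were called higher. Hbegf, which drives keratinocyte migration, lay at 7.14, 5.64 and 7.18 CPM in unwounded skin and 21.4, 27.5, 55.9, 56.2 and 33.9 CPM in the wounds (log2 2.55, SE 0.43, edgeR adjusted p = 2.22e-05) and amphiregulin (Areg) rose 8.33-fold, whereas betacellulin (Btc) lay at 34.2, 29 and 32.2 CPM in unwounded skin and 4.68, 4.81, 5.05, 0.692 and 3.68 CPM in the wounds (log2 -3.06, SE 0.66, edgeR adjusted p = 0.000455). Among 15 genes of the FGF family 1 was higher and 7 were lower, including the receptor Fgfr2, 3.46-fold, Fgf1, 3.82-fold, and the feedback inhibitor Spry1, 2.41-fold. The higher one was Dusp6, a phosphatase that restrains ERK, 2.93-fold. In the TGF-beta and BMP family, 4 of 23 genes were higher and 6 lower, shares near those of all genes. Tgfb1, which drives matrix production, lay at 29.7, 25.6 and 27.8 CPM in unwounded skin and 146, 114, 113, 178 and 166 CPM in the wounds (log2 2.37, SE 0.23, edgeR adjusted p = 3.28e-09), and activin A (Inhba) rose 14.3-fold. Bmp2, a signal of follicle and epidermis, lay at 55, 35.2 and 52.5 CPM in unwounded skin and 9.62, 10.7, 13.9, 8.88 and 8.63 CPM in the wounds (log2 -2.20, SE 0.34, edgeR adjusted p = 7.08e-06), and the BMP antagonist Grem1 was 5.81-fold lower. Without wound replicate 4, 8 of the 23 were called higher. Of 22 Wnt and hedgehog genes 1 was higher and 6 were lower, beside 23.6% and 19.7% of all genes tested. Axin2, a general target of Wnt signalling, lay at 83.9, 61.6 and 91.4 CPM in unwounded skin and 23, 23.3, 24.2, 27.4 and 22.3 CPM in the wounds (log2 -1.72, SE 0.22, edgeR adjusted p = 2.81e-07). Wnt3 was 3.52-fold lower. The higher one was Shh, 35.3-fold from 6 reads. Of 11 IGF genes 2 were lower, the binding protein Igfbp3 (4.39-fold) and the protease Pappa2 (8.95-fold), and 0 higher.

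Genes of dividing cells rose. Of 15 replication genes 14 were higher, and of 18 mitosis genes 17 were higher, with 0 lower in either. Birc5, survivin of the mitotic spindle, lay at 7.14, 5.01 and 7.65 CPM in unwounded skin and 54.9, 54.5, 48.2, 45.6 and 44.7 CPM in the wounds (log2 2.91, SE 0.21, edgeR adjusted p = 1.94e-11). Cdk1, the kinase that starts mitosis, rose 6.46-fold, the mitotic kinase Plk1 6.23-fold and Ccne1, the cyclin of S phase entry, 5.71-fold. All 5 wounds lay above all unwounded libraries for these 4 genes. Cdkn1a (ENSMUSG00000023067, chr17:29309936-29319701, plus strand), the gene of the series' title, which encodes the cell cycle inhibitor p21, lay at 244, 194 and 246 CPM in unwounded skin and 513, 455, 406, 717 and 382 CPM in the wounds (log2 1.12, SE 0.24, edgeR adjusted p = 0.00035). The lowest wound was above the highest unwounded library. Of 20 genes of CDK inhibitors and p53 targets 7 were higher and 4 lower. The count lower was 2 without wound replicate 4 or unwounded replicate 1 or 3. Pmaip1, a death-promoting p53 target, rose 4.31-fold, while Cdkn1b, which encodes the inhibitor p27, fell 1.84-fold and Ccng1, a p53-induced cyclin, 3.44-fold.

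Genes of energy metabolism moved in both directions. Of 17 nuclear genes of the respiratory chain and its regulators 14 were lower and 0 higher, and of 12 mitochondrially encoded genes 7 were lower and 0 higher. Without unwounded replicate 2 the counts lower were 7 and 2. Ppargc1a, a master regulator of mitochondria, fell 4.81-fold, the complex I subunit Ndufs1 2.15-fold and the muscle isoform Cox7a1 7.06-fold. mt-Nd2, encoded in the mitochondrion, lay at 6351, 8263 and 5503 CPM in unwounded skin and 2003, 2019.9, 1599, 3443 and 1894 CPM in the wounds (log2 -1.61, SE 0.28, edgeR adjusted p = 3.63e-05). Muscle is rich in mitochondria, adult muscle transcript fell in the same wounds, and replicate 4 had the highest level of mt-Nd2 and of the adult muscle list among the wounds. The part of muscle in this fall was not tested. Of 20 glycolysis and hypoxia genes 8 were higher and 2 lower. Eno1, an enolase of most tissues, lay at 247, 258 and 257 CPM in unwounded skin and 917, 942, 662, 1013 and 1059 CPM in the wounds (log2 1.85, SE 0.15, edgeR adjusted p = 1.20e-10), and the glucose transporter Slc2a1 rose 3.3-fold, whereas Bnip3, a mitophagy receptor, fell 2.18-fold.

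Stress and biosynthesis lists rose in part. Of 15 genes of the Nrf2 response and metallothioneins 12 were higher and 0 lower. Slc7a11, the cystine importer, lay at 0.112, 0.12 and 0.0524 CPM in unwounded skin and 86.4, 62.4, 65.3, 197 and 105 CPM in the wounds (log2 9.92, SE 0.85, edgeR adjusted p = 3.74e-10), and heme oxygenase (Hmox1) rose 7.52-fold. Of 17 secretory pathway genes 11 were higher, with the translocon subunit Sec61b 3.29-fold. Of 18 ribosome biogenesis genes 13 were higher, mostly by small amounts (median log2 0.59), such as Nop56, 1.8-fold. Of 18 cholesterol synthesis genes 10 were higher. In these 3 lists 0 genes were lower. Of 15 clock genes 8 were lower and 1 was higher. Hlf, a clock output factor, lay at 92.5, 79.6 and 101 CPM in unwounded skin and 11.3, 13.3, 10.9, 6.86 and 6.99 CPM in the wounds (log2 -3.21, SE 0.30, edgeR adjusted p = 1.78e-09), and the repressor Nr1d1 fell 4.03-fold. Nfil3, which opposes such output factors, rose 4.34-fold. The hour at which biopsies were taken is not in the sources used here, so hour and wounding cannot be told apart for these genes.

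The P arm was also sampled at days 2 and 12. Between day 2 and day 4, 8.45% of genes were called (1189 or 5.76% higher and 557 or 2.7% lower at day 4), and between day 4 and day 12, 23.8% (2604 or 12.6% higher and 2318 or 11.2% lower at day 4). The day 2 comparison moved with single libraries. The count lower at day 4 was 278, 325 and 853 without day 4 replicate 1, 2 and 4, and 295 and 244 without day 2 replicate 4 and 5, and the count higher was 710 and 693 without the latter 2. The neutrophil list had a median sum of 73.2 CPM in unwounded skin, 7084 at day 2, 3024 at day 4 and 111 at day 12. Its sums overlapped between day 2 (5443 to 10692 CPM) and day 4 (2866 to 10406 CPM), and 2 of its 20 genes were called lower at day 4 than at day 2. Collagens had medians of 3079.5, 5182, 10975 and 21996 CPM, overlapping between day 2 (4784 to 17229 CPM) and day 4 (10602 to 29010.2 CPM), with 2 of 21 called higher at day 4 than at day 2. Granular layer genes had medians of 6501, 1043, 10869 and 4260.1 CPM, and 13 of 20 were called higher at day 4 than at day 2. Their sums overlapped slightly between day 2 (609 to 3583 CPM) and day 4 (3431 to 16224 CPM). Sprr and Lce genes had medians of 1392, 135, 3420.3 and 1808 CPM, and 14 of 28 were called higher at day 4 than at day 2. The day 2 wounds were split for the latter, at 1881, 817, 135, 75 and 71.3 CPM, so that replicate 1 lay above all unwounded libraries. Of single genes, Casp14 was higher at day 4 than at day 2 (log2 3.51, edgeR adjusted p = 0.00024), with means of 28 CPM at day 2 and 172 CPM at day 12. Myh3 rose from a mean of 5.89 CPM at day 2 (log2 5.86, edgeR adjusted p = 1.39e-05) and was lower again at day 12, at 79.7 CPM (edgeR adjusted p = 0.00731). Il1b did not differ detectably between days 2 and 4 (log2 0.30, edgeR adjusted p = 0.903) and had a mean of 23.2 CPM at day 12 (day 4 minus day 12: log2 6.10, edgeR adjusted p = 0.000209). Mitosis genes had median sums of 731, 800.0 and 927 CPM at days 2, 4 and 12. The ranges overlapped, at 601 to 899, 547 to 919 and 652 to 1076 CPM. Of the 18 genes 0 were called between day 4 and either day 2 or day 12.

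**Figure D5:**
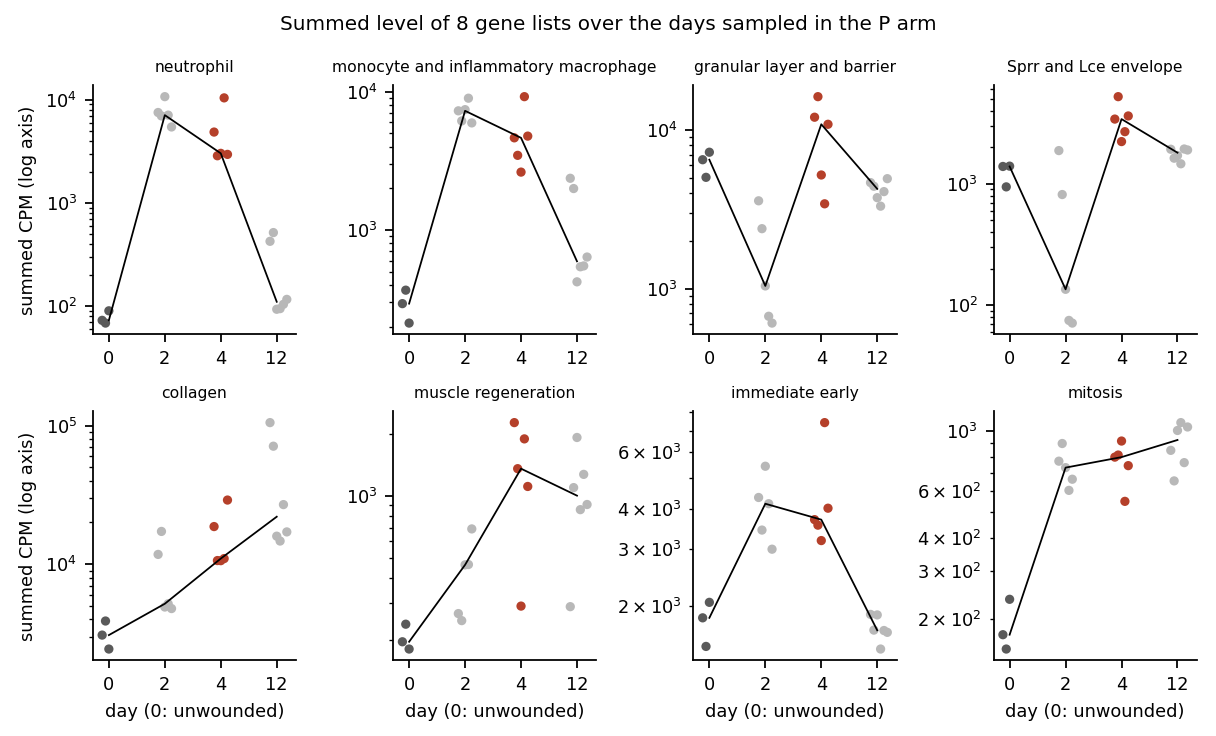
Summed CPM (y axis, log scale) of 8 gene lists in each P arm library at days 2, 4 and 12 and in unwounded skin (day 0), with the line through the medians. Neutrophil and monocyte medians are highest at day 2, granular layer and muscle regeneration medians at day 4 and collagen medians at day 12. The libraries of days 2 and 4 overlap for each of these lists.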

How the data were processed

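RNA of mouse skin biopsies was sequenced from stranded mRNA libraries, and the authors deposited raw read counts per gene. The submitters' processing notes name Trimmomatic, HISAT2 2.1.0, SAMtools 1.9, HTSeq and the GRCm39 build. The strand setting of the counting and the annotation release are not given in the sources used here, so reads of overlapping and antisense genes may be shared. The files list 55414 gene IDs, of which 54749 were named from GENCODE vM39.

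All 36 libraries were fitted together with edgeR 4.0.16 in R 4.3.3 (quasi-likelihood, TMM, a mean per arm and day). Genes were kept by filterByExpr (minimum count 10, minimum total 15), which left 20657. Genes were called at a Benjamini-Hochberg adjusted p of 0.05. Alternatives used limma 3.58.1 and DESeq2 1.42.0, other scalings and filters, and each replicate left out. The fit was tested on simulated counts with 200 of 20157 genes changed in P day 4. It recovered 52% of 2-fold and 81% of 4-fold changes and called 2 of 19957 unchanged genes. The simulation changed few genes, in random directions, whereas 43.3% of genes were called in the real comparison. These rates need not hold there. A gene not called may therefore still have changed. A floor of 3 counts over the group bounds genes at 0, and intervals (95%, exact) cover counting error only.

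The gene lists and members were chosen with earlier results of these data known. Named genes were drawn from a rule that gave Cdkn1a, the first 2 of each list and up to 4 further called members with the largest change and a mean of 1 CPM or more. It also gave up to 3 called against the list's majority. Added to these were the 12 higher and 12 lower genes with the largest change at 10 CPM or more whose groups did not overlap. Only part of the genes under this rule are given, and that part was picked with their values known. Members named outside this rule were chosen after their values were seen. Sprr2, Lce, Krt6 and Saa genes have near copies, so their single values are uncertain.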

Additional observations from a re-analysis of the deposited data

Results flagged for a closer look

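One wound lay apart from the other 4 in 44 of the 170 genes and summed lists named above, judged by its gap to the nearest wound as a share of the range of the 5 (Dixon's ratio above 0.71). Chance flags about 1 group in 20 only if values follow a normal distribution, which was not tested for these CPM values. These genes are also not independent of each other. Wound replicate 4 was the highest in 33 of them. Among genes of inflammation the ratios were Ccl3 0.727, Ccl4 0.712, Ccr1 0.785, Clec4e 0.849, Csf3 0.84, Cxcl1 0.729, Cxcl2 0.767, Fpr1 0.886, Il1a 0.818, Il1b 0.739, Nlrp3 0.782, Ptgs2 0.747, S100a9 0.726, Stfa2l1 0.798, Tnf 0.88 and the summed neutrophil list 0.736. Among genes of muscle, mitochondria and p53 they were Ccng1 0.716, Ckm 0.843, Cox7a1 0.737, Mstn 0.761, Pvalb 0.848, mt-Nd2 0.772 and the summed adult skeletal muscle list 0.79. The others in which it was highest were Defb14 0.889, Fosl1 0.761, Hamp2 0.813, Ier3 0.814, Junb 0.754, Mmp10 0.83, Mmp13 0.827, Nfil3 0.79, Slpi 0.918 and Thbs1 0.735. It was the lowest wound for Mmp3 0.755 and Ptger3 0.864. The cause of this difference of replicate 4 was not tested.

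Wound replicate 3 was the highest for Fgfr2 0.753, Krt25 0.999, Krt27 1, Pmel 0.851, the summed melanocyte list 0.792 and the summed hair shaft and inner root sheath list 0.995. Wound replicate 5 was the highest for Adamts4 0.862 and Il6 0.755, and replicate 2 for Retnla 0.74.

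Of the named genes, 3 had means on opposite sides of that of unwounded skin, lower at day 2 and higher at day 4. Whether day 2 differed from unwounded skin was not tested here. Krt25 was close to absent from unwounded skin, so its lower mean at day 2 rests on few reads, and not every day 4 wound was above unwounded skin. By edgeR the day 4 minus day 2 difference was 3.51 on the log2 scale for Casp14, 12.91 for Krt25 and 3.46 for Pmel. Replicate 3 was the highest day 4 wound for Krt25 and Pmel, and without it neither was called against unwounded skin.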

How the results depend on the processing

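The count of genes called between P day 4 wounds and unwounded skin (4879 higher, 4066 lower) kept within 1.5 times under every scaling, filter and tool tried: 5304 and 3319 without a composition factor, 5499 and 4087 by the DESeq2 Wald test, 4442 and 4452 by limma-voom. With 1 library left out it ran from 4153 to 5185 higher and from 2689 to 4058 lower, the lowest being without unwounded replicate 2. Leaving out wound replicates 3 and 4, chosen after seeing the data, gave 4363 and 3808. The fit of the 2 groups alone gave 4393 higher and 3650 lower. The replicate block gave 5092 higher and 4375 lower. Deviations of same-numbered libraries from their group means had r = -0.0013, -0.0273 and 0.124. Differently numbered ones ran from -0.131 to 0.0886. With so few pairs and values so alike, this cannot decide whether the numbers pair the samples. Against day 2 (1189 higher, 557 lower) the fit of the 2 groups alone gave 774 and 364, and no filter gave 292 lower. Leaving out a library gave 693 to 1591 higher and 244 to 853 lower. Against day 12 (2604 higher, 2318 lower) no composition factor gave 3977 lower and the 2 groups alone 1458 lower. Leaving out a library gave 1930 to 2989 higher and 1710 to 2934 lower. The causes were not tested.

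Krt5, not called, changed sign to -0.00279 on the log2 scale by limma-voom and to -0.0377 without wound replicates 3 and 4, and ran from -0.14 to 0.28 with 1 library left out. Acta2, also not called, ran from -0.00917 (without wound replicate 5) to 0.29, and Myh7 from -7.73 to 2.23 (without unwounded replicate 2). The small number of unwounded libraries limits the precision of the comparison with them, and genes with few reads in them have wide intervals.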
